A study of Mus musculus with 54 samples.

Results

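Trimethylation of lysine 4 on histone H3 (H3K4me3) was compared between wild-type (Wt) and Ebf1-KO mouse fetal liver cells labelled ProB, at accessible regions that the authors had assigned to genes enriched in Wt. Every region of the 4 deposited histone tables was used except 4 regions on the Y chromosome. After repeated lines were merged, 3638 distinct regions next to 1660 genes remained, of 4829 distinct regions in the accessibility table of the series. How the authors defined enrichment in Wt is not given in the sources used here, so a difference towards Wt near these genes is no independent evidence of direction. The 4 samples, of 54 in the series, were 2 Wt and 2 Ebf1-KO chromatin immunoprecipitations with the same rabbit anti-H3K4me3 antibody. Both genotypes came from fetuses on a C57BL6/J background, either wild-type or deficient in the transcription factor Ebf1, and were expanded on OP9 stroma with interleukin-7 and the ligands of KIT and FLT3 before fixation in formaldehyde.

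H3K4me3 is laid down by the KMT2 and SETD1 methyltransferases around the starts of active or poised genes, is usually weaker at enhancers, and is often broad at CpG-rich promoters. H3K27me3, written by the polycomb complex with Ezh2, marks repressed genes. Ebf1 is the factor that, with E2A and Foxo1, sets up the early B-cell programme, and cells without it stop before the pro-B stage is complete. Its known targets include the genes of the pre-B-cell receptor, a receptor built from an immunoglobulin heavy chain, the surrogate light chain (Vpreb1, Vpreb2, Igll1) and the signalling chains Cd79a and Cd79b.

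The deposited tables hold each genotype as 1 pooled column, so the spread between the 2 samples cannot be seen, whether they came from separate animals is not given in the sources used here, no test across replicates exists, and each difference below compares these pools. Values are tags per region scaled to 10000000 tags per library, called tags below, with 95% exact Poisson intervals for counting error. A region was called different when log2 of (Wt + 1) over (Ebf1-KO + 1) was at least 1 in size, which is 2-fold, and positive log2 ratios are higher in Wt. Folds are ratios of the tags themselves with exact conditional 95% intervals. The libraries held 76632191 tags in Wt and 196071042 in Ebf1-KO, of which 1.57% and 1.93% lay in the regions, and 7 and 19 regions had no tag. The intervals do not cover differences between cultures or animals, and in such bulk chromatin fewer cells carrying the mark and less of it per cell cannot be told apart.

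Marker lists were read beside the cells' label. They cannot check it, because only regions of genes enriched in Wt are present, which bears on which markers have a region. Of the 10 B-progenitor markers, 9 had a region, with a summed H3K4me3 of 549 tags in Wt and 213 in Ebf1-KO (range per gene 18.0 to 94.0 and 1.22 to 126). Ebf1 itself, the targeted gene, held 89.9 and 126 of these tags, and without it the sums were 459 and 87.2. Of the markers of other cells, 1 of 7 for T cells (Cd5), 1 of 5 for natural killer cells (Klrb1c) and 1 of 6 for myeloid cells (Lyz2) had a region. Cd5, Klrb1c and Lyz2 held 11.7, 123 and 1.44 tags in Wt and 5.41, 234 and 6.94 in Ebf1-KO. The Klrb1c region lay 28344 bp from its start. No erythroid or stromal marker had a region among these Wt-enriched genes, so carry-over of OP9 cells cannot be read from these tables. The part of other cell types in the results was not tested. Ebf1 had 5 regions nearest to its start, all with higher values in Ebf1-KO. Its promoter (chr11:44616860-44617600, mm10) held 59.9 tags in Wt and 126 in Ebf1-KO, and 3 of the 5 regions were at least 2-fold higher in Ebf1-KO. Of 3 further regions in Ebf1 introns, whose nearest start is that of Gm12159, the one in intron 8 held 19.6 and 50.7 tags, and those in intron 10 held 4.44 and 2.19, and 5.09 and 1.28. A histone mark at the gene does not show whether the protein is absent, and which part of the gene was deleted is not given in the sources used here.

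The sequences of 7 promoters described below are shown because they differ in CpG content, which H3K4me3 is known to follow. Of the 913 regions called at least 2-fold higher in Wt, 818 were not promoters, and of the 562 higher in Ebf1-KO, 481 were not. Of all 3638 regions, 3057 were not promoters, so this mostly follows from the make-up of the regions. Each line gives the 250 bases before the annotated start, from RefSeq (GRCm38.p6), in the direction of transcription, with CG dinucleotides in capitals.
Cd79a: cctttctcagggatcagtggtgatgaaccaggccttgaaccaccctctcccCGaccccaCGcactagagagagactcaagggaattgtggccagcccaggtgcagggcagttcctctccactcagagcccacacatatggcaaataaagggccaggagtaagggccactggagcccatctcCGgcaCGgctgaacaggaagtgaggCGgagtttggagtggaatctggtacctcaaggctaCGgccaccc
Vpreb1: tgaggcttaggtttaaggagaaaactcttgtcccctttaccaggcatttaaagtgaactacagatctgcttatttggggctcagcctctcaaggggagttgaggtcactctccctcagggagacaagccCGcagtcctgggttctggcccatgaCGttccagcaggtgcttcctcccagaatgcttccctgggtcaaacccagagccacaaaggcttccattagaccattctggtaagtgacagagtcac
Igll1: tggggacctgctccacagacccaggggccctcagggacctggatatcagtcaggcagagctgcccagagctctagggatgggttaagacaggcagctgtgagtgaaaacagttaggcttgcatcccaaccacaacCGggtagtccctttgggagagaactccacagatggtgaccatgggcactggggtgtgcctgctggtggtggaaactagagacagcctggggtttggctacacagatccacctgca
Pou2af1: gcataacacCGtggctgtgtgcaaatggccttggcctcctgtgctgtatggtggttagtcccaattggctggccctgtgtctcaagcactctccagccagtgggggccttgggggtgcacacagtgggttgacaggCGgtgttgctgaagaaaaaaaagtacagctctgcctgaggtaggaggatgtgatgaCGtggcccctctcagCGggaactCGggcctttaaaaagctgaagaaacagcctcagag
Pax5: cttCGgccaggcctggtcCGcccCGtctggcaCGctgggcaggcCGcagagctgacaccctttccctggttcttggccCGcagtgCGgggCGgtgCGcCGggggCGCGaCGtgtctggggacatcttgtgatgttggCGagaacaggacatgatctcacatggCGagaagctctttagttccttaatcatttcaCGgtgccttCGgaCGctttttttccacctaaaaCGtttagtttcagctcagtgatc
Xk: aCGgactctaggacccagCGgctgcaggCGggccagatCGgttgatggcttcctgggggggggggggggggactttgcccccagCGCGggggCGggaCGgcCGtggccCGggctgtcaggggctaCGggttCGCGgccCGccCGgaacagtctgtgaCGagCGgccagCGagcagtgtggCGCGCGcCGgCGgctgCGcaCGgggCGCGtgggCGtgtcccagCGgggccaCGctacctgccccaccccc
Fahd2a: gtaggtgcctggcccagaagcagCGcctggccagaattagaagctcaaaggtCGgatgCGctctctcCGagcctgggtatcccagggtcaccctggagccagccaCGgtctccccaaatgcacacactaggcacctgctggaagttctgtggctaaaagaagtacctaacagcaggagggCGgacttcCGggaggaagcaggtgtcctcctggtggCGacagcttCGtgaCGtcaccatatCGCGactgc
These windows are chr7:24897247-24897496 (Cd79a, plus strand), chr16:16869256-16869505 (Vpreb1, minus), chr16:16863986-16864235 (Igll1, minus), chr9:51213440-51213689 (Pou2af1, plus), chr4:44710695-44710944 (Pax5, minus), chrX:9272534-9272783 (Xk, plus) and chr2:127444566-127444815 (Fahd2a, minus). They hold 6, 2, 1, 5, 19, 30 and 12 CG dinucleotides in that order. The first 5 promoters carried more H3K4me3 in Wt, and the Xk and Fahd2a promoters carried more in Ebf1-KO.

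Over all regions, H3K4me3 did not simply drop in Ebf1-KO. Regions accessible in Wt but not in Ebf1-KO mostly had less of the mark in Ebf1-KO, while regions accessible in both genotypes had similar or slightly higher levels there. The median of all 3638 regions was 14.1 tags in Wt and 10.7 in Ebf1-KO, with a median log2 ratio of -0.03 (interval over regions -0.09 to 0.02). Of these regions 913 (25.1%) were at least 2-fold higher in Wt, 562 (15.4%) were at least 2-fold higher in Ebf1-KO, 40.5% in either direction, and 2163 lay between. Larger differences leaned more to Wt, with 429 regions at least 4-fold higher in Wt against 104 in Ebf1-KO, and 150 against 25 at 8-fold.

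The 2 accessibility classes differed. At the 748 regions open in Wt only and away from promoters, the median was 6.39 tags in Wt and 2.04 in Ebf1-KO, and 400 (53.5%) were called higher in Wt against 39 (5.21%) higher in Ebf1-KO, 58.7% in all. The 69 promoters open in Wt only had medians of 11.2 and 3.67 tags, and 39 (56.5%) were called higher in Wt against 5 (7.25%) higher in Ebf1-KO, 63.8% in all. Their median log2 ratio was 1.27 (0.72 to 1.88), close to the 1.16 (0.99 to 1.35) of the other Wt-only regions. The promoter median rests on the choice of regions: with 1 region per gene, its strongest, it was 0.020.

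Regions open in both genotypes behaved differently. The 512 promoters open in both carried medians of 77.0 tags in Wt and 91.8 in Ebf1-KO, a median log2 ratio of -0.49 (-0.57 to -0.41), and 56 (10.9%) were called higher in Wt against 76 (14.8%) higher in Ebf1-KO, 25.8% in all. At the 2309 other regions open in both the medians were 14.5 and 13.7 tags, the median log2 ratio was -0.22 (-0.27 to -0.16), and 418 (18.1%) and 442 (19.1%) were called, 37.2% in all. The direction of that last median depends on the zero point: with ratios centred on the promoters open in both, it was 0.27. The same centring gave 1322 regions higher in Wt and 231 higher in Ebf1-KO over all regions, against 913 and 562 as deposited.

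**Figure D1:**
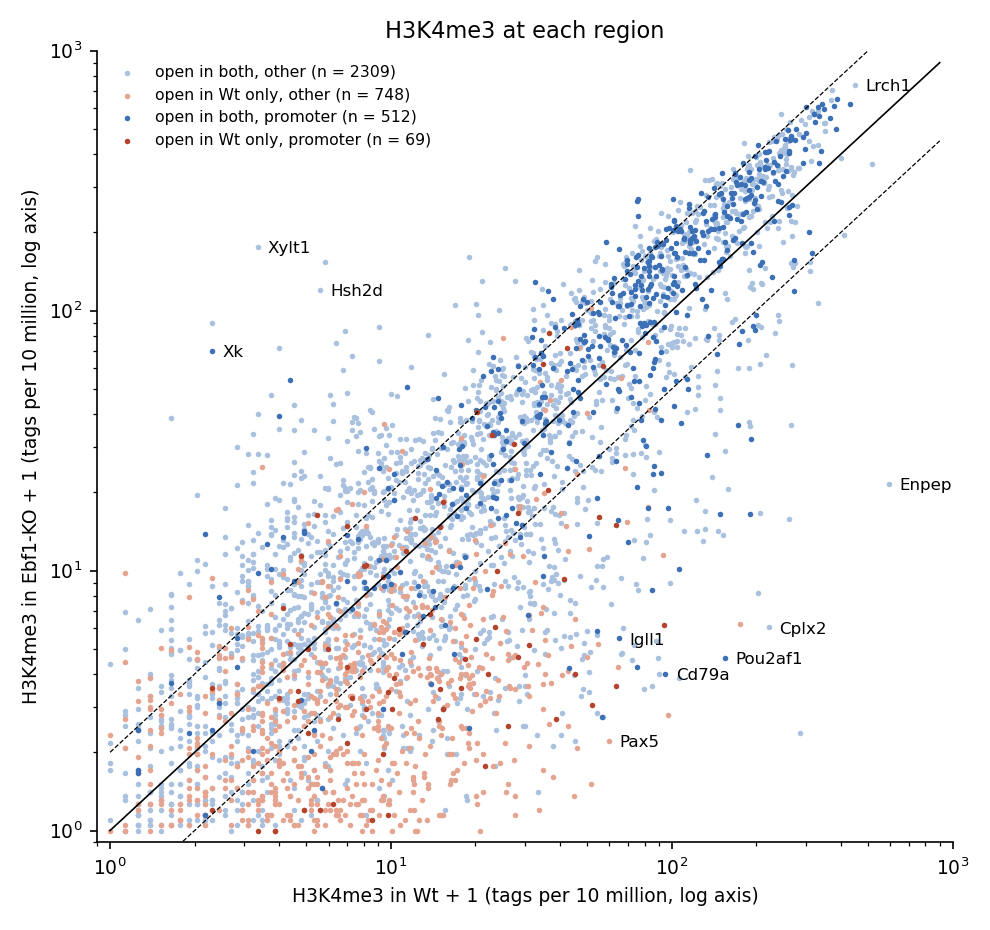
H3K4me3 at each of the 3638 regions, in Wt on the x axis and Ebf1-KO on the y axis (tags per 10000000 plus 1, log axes), with lines of equality (solid) and 2-fold difference (dashed) and colours for the 4 region classes. Promoters open in both (dark blue, n = 512) lie mostly just above the line of equality, and regions open in Wt only (red tones) lie mostly below it.

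The ratio also went with the level of the mark. When regions were ranked by their mean tags per kb and divided into 5 equal groups, the median log2 ratios were 0.37, 0.62, 0.27, -0.16 and -0.60 from the lowest to the highest group. Regions open in Wt only were weaker, with medians per kb of 14.5 and 4.14, against 25.2 and 26.3 for regions open in both. So this ranking is not separate from the contrast of classes. The lowest group had medians of 2.16 and 1.43 tags, where the added 1 pulls ratios towards 0. In the highest group, 41 of 728 regions were called higher in Wt and 108 higher in Ebf1-KO, and its median was 119 tags in Wt and 174 in Ebf1-KO. The Ebf1-KO library was also more concentrated: the 10% of regions with most tags held 57.1% of its region tags, against 49.4% in Wt. The share of the library in the regions and the depth both differed in the same direction, and their part in the small shift at strong promoters was not tested.

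Distance from the start gave the same contrast of classes at every range. Regions open in Wt only had positive medians in all 7 distance ranges, from 0.83 between 500 and 1000 bp to 1.68 within 500 bp. Regions open in both had their lowest median within 500 bp of a start, at -0.48 (-0.54 to -0.42, n = 796), where the mark was also strongest, with 95.9 tags in Wt and 121 in Ebf1-KO. Between 1000 and 2000 bp the median was 0.06 (-0.16 to 0.20) and between 5000 and 20000 bp it was -0.23 (-0.33 to -0.13). Among regions open in both, the median level per kb was 97.6 in Wt and 117 in Ebf1-KO within 500 bp, and 10.6 and 9.92 beyond 100000 bp.

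**Figure D2:**
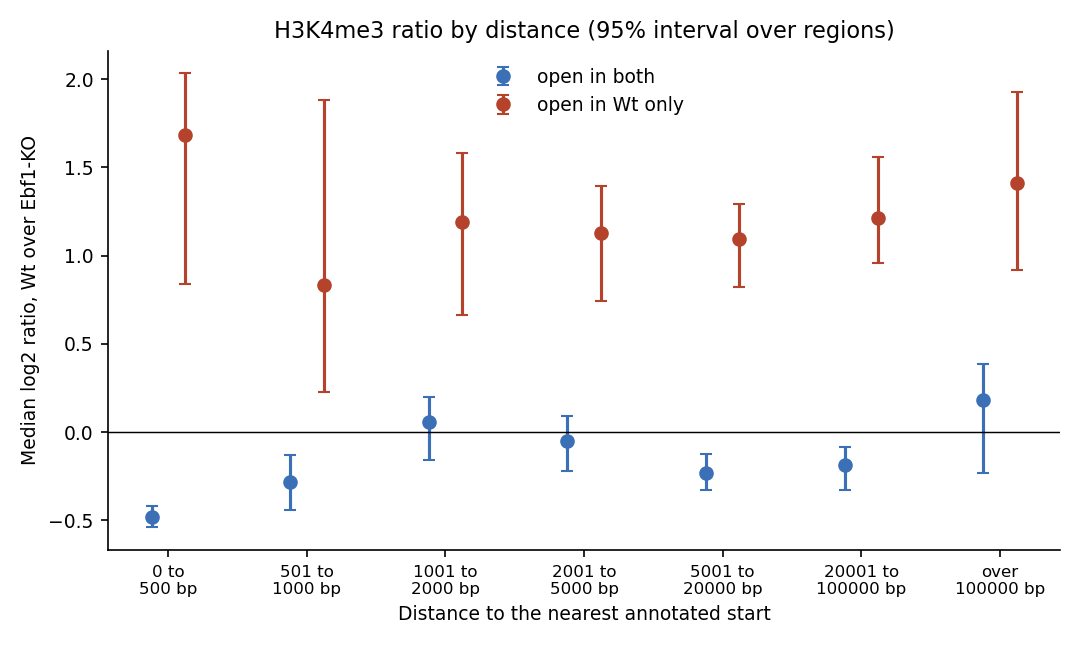
Median log2 ratio of H3K4me3 (Wt over Ebf1-KO, y axis) in 7 ranges of distance to the nearest annotated start (x axis), for regions open in both (blue) and in Wt only (red), with 95% order-statistic intervals over regions, which are not replicate error. Every red median lies above 0.8, and the blue medians lie between -0.48 and 0.18.

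Components of the pre-B-cell receptor and of its signalling had the most one-sided pattern among the gene lists. Of 25 listed genes, 19 had a region, and in the strongest region of each gene 11 were at least 2-fold higher in Wt and 1 was higher in Ebf1-KO, with a median log2 ratio of 1.53. Over the strongest regions of all 1660 genes, 322 (19.4%) were higher in Wt, 280 (16.9%) were higher in Ebf1-KO and the median was -0.31. With the region nearest the start in place of the strongest, 9 of the 19 were higher in Wt and the median was 0.72.

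Within that list, the surrogate light chain and the signalling chains stood farthest apart between the genotypes. The Cd79a promoter (chr7:24896982-24897767) held 94.0 tags (87.2–101) in Wt and 3.01 (2.29–3.88) in Ebf1-KO, 31.2-fold (23.9–41.4) higher in Wt. The Cd79b promoter (chr11:106314409-106314748) held 93.2 and 5.15 tags, 18.1-fold (14.7–22.5) higher. All 4 regions nearest to Cd79a and all 5 nearest to Cd79b were called higher in Wt, including a region of Cd79b that lies in the 3′ UTR of the neighbouring gene Scn4a. The surrogate light chain genes were alike: the promoters of Vpreb1 (chr16:16869013-16869518), Vpreb2 (chr16:17979756-17980783) and Igll1 (chr16:16863729-16864437) held 51.0, 74.1 and 63.7 tags in Wt and 2.04, 3.26 and 4.49 in Ebf1-KO. Vpreb1 and Vpreb2 are near-identical copies, and how tags matching both were placed is not given in the sources used here. The difference at Igll1 was not seen at an intergenic region at -1602 bp from its start (negative distances are upstream), which held 17.9 tags in Wt and 18.1 in Ebf1-KO.

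Adaptors, kinases and co-receptors of the receptor included some with less of the mark in Ebf1-KO, some without a called difference, and Btk with more. Blnk, the adaptor that links the receptor to its downstream enzymes, held 82.9 tags in Wt and 12.7 in Ebf1-KO at an intergenic region at -1409 bp from its start (chr19:40995376-40996512), 6.52-fold (5.63–7.59) higher in Wt. The Src-family kinase Blk held 37.2 and 12.2 tags, and the inhibitory co-receptor Cd22 held 74.4 and 20.0 at its promoter. Rasgrp3, an activator of Ras, held 12.3 and 0.97 tags in its first intron. Cr2 (complement receptor 2) had the widest fold, with 32.6 tags in Wt and 0.20 in Ebf1-KO at a region at -25506 bp, 160-fold with a counting interval of 61.7 to 591 because Ebf1-KO had so few tags. By contrast Fcrl1 held 40.8 and 36.1 tags in its first intron, and Vav3, a signalling protein of lymphocytes, held 165 and 186 at its promoter. Btk, the kinase downstream of Blnk, was the gene called higher in Ebf1-KO, with 40.3 tags in Wt and 84.6 at its promoter (2.10-fold, 1.86–2.38). Under the alternative scaling by trimmed means (TMM) Btk was no longer called.

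B-lineage transcription factors showed both directions. Of 20 listed, 14 had a region, 5 were called higher in Wt, 2 were called higher in Ebf1-KO and the median was -0.00, beside 19.4% and 16.9% of all genes called and a median of -0.31. Pou2af1, the coactivator of octamer-binding factors, had the highest ratio of all promoters that the naming rule covers (chr9:51212995-51214114), with 154 tags (145–163) in Wt and 3.62 (2.83–4.57) in Ebf1-KO, 42.6-fold (33.5–54.9) higher. Pax5, which fixes B-cell identity, held 58.9 and 1.22 tags in its first intron (chr4:44709071-44709390), 30.1 and 4.18 at its promoter, and all 4 of its regions were called higher in Wt. Ikzf3 (Aiolos) held 84.3 and 7.45 tags at its promoter (chr11:98545633-98546367), 11.3-fold (9.45–13.6) higher in Wt. Irf4 held 188 and 34.9 tags in its first intron, 5.39-fold (4.92–5.92) higher.

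Other factors kept the mark in Ebf1-KO. Irf8 held 167 tags in Wt and 190.1 in Ebf1-KO, Spib held 43.7 and 38.5, Pou2f2 held 87.0 and 115, and Bcl11a held 102 and 158, all within 2-fold. Tcf4, an E-protein gene, held 142 and 272, also within 2-fold. Tcf3, which encodes E2A, was mixed: its promoter (chr10:80433524-80433859) held 30.8 tags in Wt and 78.4 in Ebf1-KO, while a region in its second intron (chr10:80429707-80430593) held 29.5 and 2.35, 12.6-fold (9.12–17.7) higher in Wt. Klf10 was the other factor called higher in Ebf1-KO, at a distal region 17731 bp from its start with 2.09 and 26.98 tags.

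**Figure D3:**
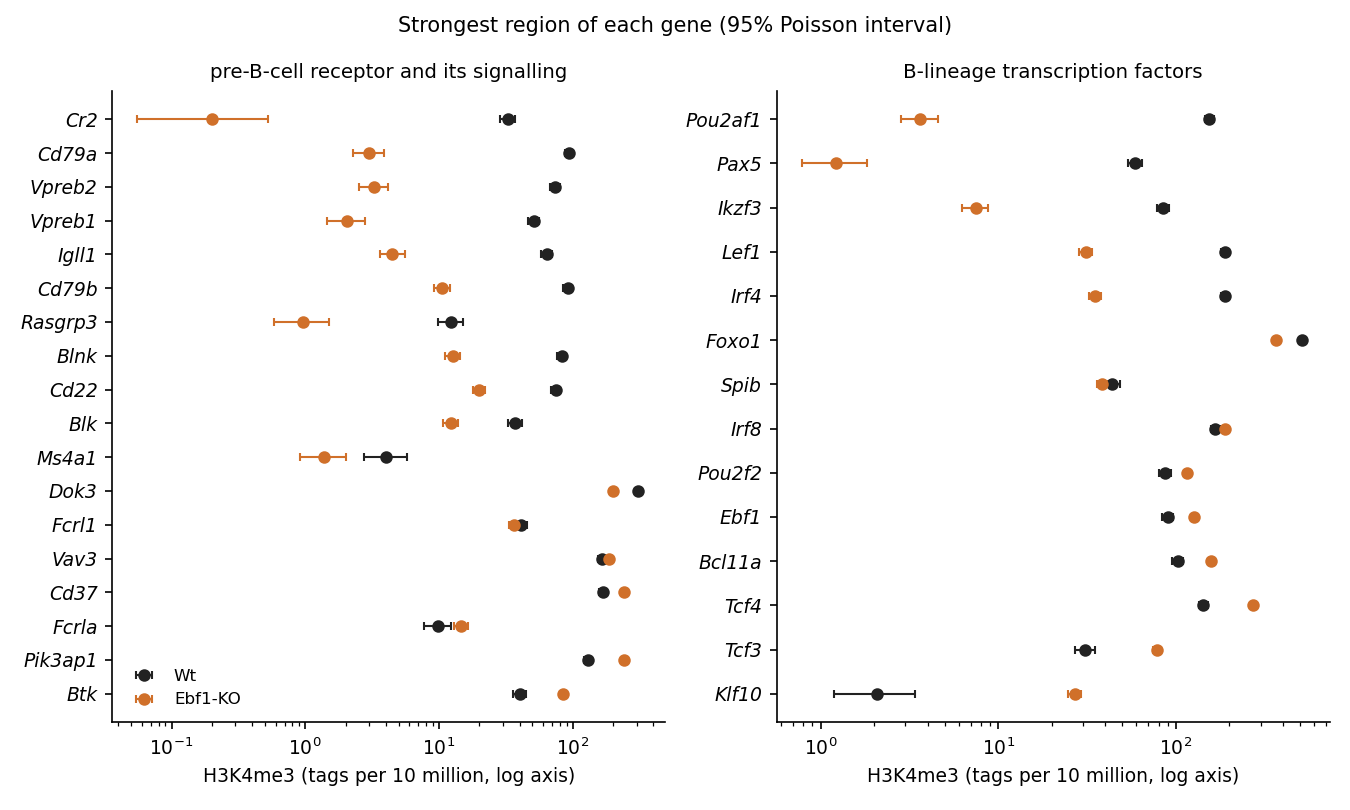
H3K4me3 in the strongest region of each listed gene (tags per 10000000, log axis; points with 95% Poisson intervals) in Wt (black) and Ebf1-KO (orange), for genes of the pre-B-cell receptor and its signalling (left, all but 1 of the 19) and 14 B-lineage transcription factors (right). From Cr2 down to Ms4a1 and from Pou2af1 down to Irf4 the Wt point lies at least 2-fold to the right, while Btk, Tcf3 and Klf10 lie the other way.

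Genes of V(D)J recombination, which cuts and joins the antigen receptor genes, had little coverage: 4 of 10 had a region, 2 were called higher in Wt and none was called higher in Ebf1-KO, where 16.9% of all genes were. The Rag1 promoter (chr2:101649360-101649875) held 51.3 tags in Wt and 39.6 in Ebf1-KO, within 2-fold. A region at -26002 bp from the Rag2 start, in the second intron of the neighbouring gene Iftap, held 18.0 and 2.86 tags, 6.31-fold (4.59–8.76) higher in Wt. Dntt, the enzyme that adds untemplated nucleotides at the joins, held 34.1 and 16.5 tags in its first intron, and the ligase gene Lig4 held 127 and 199 at its promoter.

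Surface antigens and cytokine receptors had 9 of 20 genes with a region, of which 4 were called higher in Wt and 2 higher in Ebf1-KO, beside 19.4% and 16.9% of all genes. Il5ra, a cytokine receptor chain, held 17.5 tags in Wt and 0.36 in Ebf1-KO upstream of its start, 49.0-fold (23.1–124) higher. Bst1 (CD157) held 122 and 13.3 tags in its first intron beside the start (chr5:43818730-43819486), 9.19-fold (8.00–10.6) higher, but its 2 other regions, farther into the gene, were within 2-fold. Cd55, which protects cells from complement, held 157 and 19.5 tags. Cd38 and the chemokine receptor Ccr7 were higher in Ebf1-KO, with 2.61 and 17.0 tags at Cd38 and 48.8 and 107 at Ccr7. Cxcr4, the receptor that holds progenitors in the marrow niche, held 331 tags in Wt and 586 in Ebf1-KO beside its start, within 2-fold, whereas a distal region 43145 bp away (chr1:128548308-128550001) held 5.87 and 82.7, 14.1-fold (10.5–19.4) higher in Ebf1-KO.

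Cell-cycle and survival genes had 6 of 15 listed genes with a region, none called higher in Wt and 1, Bcl2l1, called higher in Ebf1-KO, a share close to the 16.9% of all genes. With the region nearest the start, 0 were called higher in Ebf1-KO and the median was -0.48. The survival gene Bcl2l1 held 73.3 tags in Wt and 159 in Ebf1-KO at its promoter. Mki67, a marker of dividing cells, held 167 and 333 tags, just inside the threshold once the pseudocount is added, and the cyclin gene Ccnd3 held 151 and 247. The median of the strongest regions of these 6 genes was -0.78, beside -0.31 for all genes. Of the genes for writers, readers and erasers of H3K4 methylation, 1 of 16 listed had a region, and of the polycomb genes 2 of 15. Kmt2a held 20.2 and 22.2 tags, and the polycomb genes Phf19 and Ezh2 held 111 and 146, and 296 and 522, all within 2-fold.

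Where a gene had several regions, they shared a direction at some genes and not at others. Of 842 genes with at least 2 regions, 62 had every region called higher in Wt, 10 had every region called higher in Ebf1-KO, and 119 had calls in both directions. Over all 3638 regions, 25.1% were called higher in Wt and 15.4% higher in Ebf1-KO. Whether regions of 1 gene share calls beyond these shares was not tested. Lef1, a transcription factor of the Wnt pathway, had 11 regions, with 8 called higher in Wt and 1 higher in Ebf1-KO. Foxo1, which drives Rag expression, had 8 regions, with 5 called higher in Wt, yet its first exon (chr3:52267610-52270385) held 514 tags in Wt and 366 in Ebf1-KO, within 2-fold. The Foxo1 regions with the higher ratios lay far from the start, among them one 129149 bp downstream with 8.87 and 0.31 tags. So at Foxo1 the strong region at the start was within 2-fold while 5 regions farther away were called, and at Pax5, Cd79a, Cd79b and Pou2af1 the start and the other regions differed together.

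**Figure D4:**
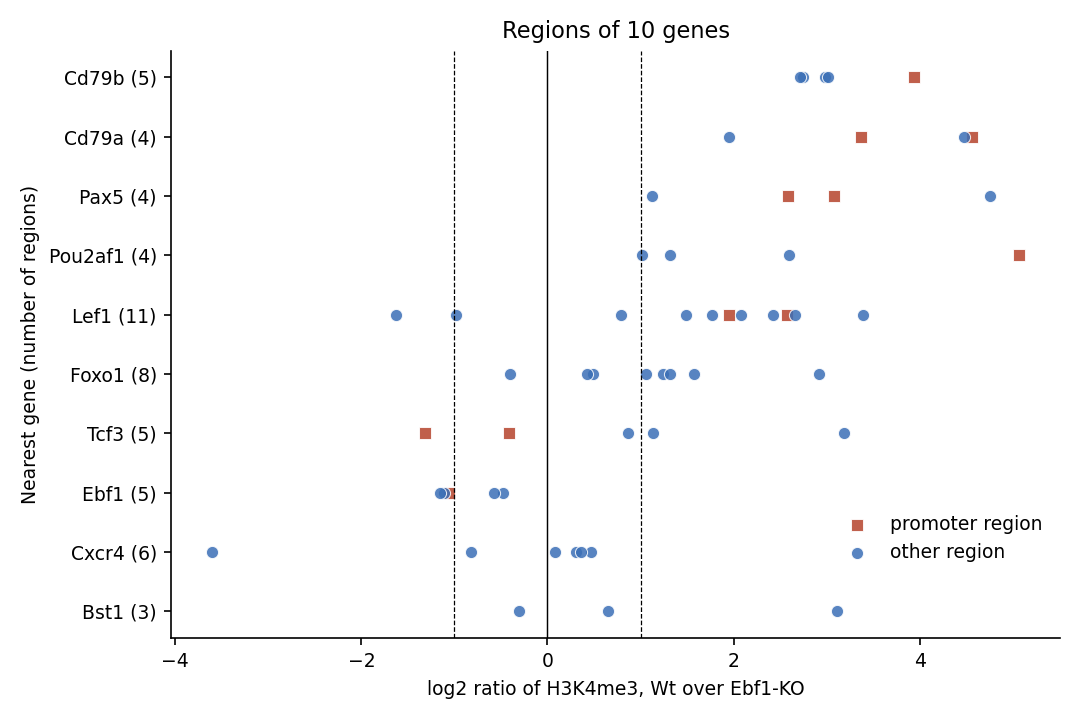
Log2 ratio of H3K4me3 (Wt over Ebf1-KO, x axis) at every region of 10 genes (y axis, number of regions in brackets), with promoter regions as red squares and other regions as blue circles and dashed lines at 2-fold. All regions of Cd79b, Cd79a, Pax5 and Pou2af1 lie right of the right-hand dashed line, Lef1 and Tcf3 have regions beyond both lines, and all 5 regions of Ebf1 lie left of 0.

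Among all promoters whose larger value was at least 20 tags, further promoters with high Wt ratios included 6030408B16Rik, Gm266 and Enpep. Enpep encodes the aminopeptidase BP-1, a surface marker of early B cells, and held 37.6 tags in Wt and 1.68 in Ebf1-KO at its promoter. The exon beside it (chr3:129331472-129332529) had the highest Wt value of all regions, 593 tags (576–610.2), which is 560 per kb, against 20.5 (18.6–22.6) in Ebf1-KO, 28.9-fold (26.1–32.1) higher. 6030408B16Rik held 55.6 and 1.73, and Gm266 held 62.3 and 2.60.

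Outside promoters, some of the high ratios lay in genes known from other tissues. Cplx2, a regulator of vesicle fusion, held 221 and 5.05 tags in its first intron, and the sulfotransferase gene Chst3 held 96.0 and 1.79. The protocadherin gene Pcdh11x held 26.8 tags in Wt and 0.15 in Ebf1-KO, 175-fold with a counting interval of 59.0 to 855. Chchd10, 1700027J07Rik and Pcp4l1 held 202, 174 and 105 tags in Wt and 7.19, 5.25 and 2.86 in Ebf1-KO.

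Fewer promoters had far more of the mark in Ebf1-KO. Xk, which encodes the membrane protein of the Kell blood group complex, was farthest, with 1.30 tags (0.63–2.40) in Wt and 69.2 (65.5–72.9) in Ebf1-KO at its CpG-rich promoter (chrX:9272038-9273419), 53.0-fold (28.7–111) higher in Ebf1-KO. RNA polymerase II (PolII) at that promoter was low in both, at 0.78 and 2.05 tags, and H3K4me2 was present in both, at 28.7 and 45.1. D130017N08Rik held 3.39 and 53.1 tags, 4833420G17Rik 10.4 and 50.03, and Prxl2a 7.18 and 28.5. Xylt1, the enzyme that starts glycosaminoglycan chains, held 3.00 and 38.4 tags at its promoter and 2.35 and 175 in its first exon (chr7:117380855-117381785), the latter 74.3-fold (47.0–126) higher in Ebf1-KO. Alcam, an adhesion molecule, held 31.7 and 128 tags, and the mitochondrial carrier gene Ucp2 held 74.1 and 262. Fahd2a held 75.03 and 268, Klhl32 35.2 and 118, and Bivm 57.4 and 183.

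Among regions not annotated as promoters, those with the highest ratios towards Ebf1-KO included some beside a start, as at Xylt1, and some far from one. After the first exon of Xylt1 came a region in intron 27 of Mthfd1 whose nearest start is that of Akap5, a kinase anchor (chr12:76318501-76319598), with 1.30 and 88.3 tags. Plxdc1 held 4.83 and 152 tags in intron 5 of 13, and Hsh2d, an adaptor of blood cells, held 4.57 and 120 in its first intron, 283 bp from its start. 4921525O09Rik, Casc1 and 5430437J10Rik held 0.65, 3.00 and 2.74 tags in Wt and 37.6, 70.8 and 46.6 in Ebf1-KO. Gja10 and the region nearest to Zbtb2, which lies in Akap12, held 2.35 and 5.35 tags in Wt and 39.1 and 74.2 in Ebf1-KO. PolII at the Akap5, Plxdc1 and Hsh2d regions was higher in Ebf1-KO too, with 56.8, 36.9 and 23.9 tags against 15.6, 4.29 and 6.24 in Wt. Of all 481 such regions with more H3K4me3 in Ebf1-KO, PolII was called higher in Ebf1-KO at 117 (24.3%) and higher in Wt at 48 (9.98%). Over all 3057 regions away from promoters these shares were 7.49% and 40.9%. At the 81 promoters with more H3K4me3 in Ebf1-KO the counts were 11 (13.6%) and 9 (11.1%), beside 4.65% and 33.0% of all 581 promoters.

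The strongest regions, ranked by tags per region and not per kb, mostly lay within 2-fold. The 5 highest in Ebf1-KO were at Lrch1, Cdc42ep3, Slc16a1, Gpam and Camk2d, and each was within 2-fold. Lrch1 held 450 tags in Wt and 738 in Ebf1-KO, Cdc42ep3, a Cdc42 effector, held 371 and 706, and Slc16a1, a lactate transporter, held 385 and 651. Gpam, which starts glycerolipid synthesis, held 367 and 648, and the kinase gene Camk2d held 429.85 and 624. All 5 were higher in Ebf1-KO, by 1.45-fold to 1.90-fold, but they were chosen for their level there. The 5 highest in Wt were at Enpep, Foxo1, Lrch1, Camk2d and Cd24a, of which Enpep and Cd24a were called higher in Wt and Foxo1 was 1.40-fold higher in Wt.

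Promoters called higher in Wt had a lower share of CpG-rich sequence than the others, while the share was close between those within 2-fold and those called higher in Ebf1-KO. A RefSeq window of 300 bases (250 before and 50 after the start) could be matched to 361 of the 581 promoter regions, giving 358 distinct windows. An observed over expected CpG ratio of at least 0.6 was found in 62.6% of these, against 35.8% of all 32851 RefSeq windows. It was found in 19 of 55 windows called higher in Wt (34.5%), 67.7% of those within 2-fold and 33 of 49 called higher in Ebf1-KO (67.3%). The 224 CpG-rich promoters held medians of 108 tags in Wt and 155 in Ebf1-KO, with a median log2 ratio of -0.61. The 134 others held 36.5 and 27.5 with a median of 0.05, and 26.9% of them were called higher in Wt against 8.48% of the CpG-rich ones. The shares called higher in Ebf1-KO were close, at 11.9% and 14.7%. Of the sequences shown, Cd79a, Vpreb1, Igll1 and Pou2af1 belong to the CpG-poor group, with ratios from 0.083 to 0.36. Fahd2a, which was higher in Ebf1-KO, had a ratio of 0.58, just under the cut of 0.6. Pax5 and Xk are CpG-rich and differed in opposite directions.

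The core of the palindrome that Ebf1 is known to bind, CCCNNGGG, which reads the same on both strands, was searched in the same windows. It was found in 13.7% of all RefSeq windows and 22.6% of the matched ones. By call it was found in 27.3% of windows higher in Wt, 22.4% within 2-fold and 18.4% higher in Ebf1-KO. It was found in 26.8% of CpG-rich windows and 15.7% of the others. Igll1 had 1 match, while the windows of Cd79a, Vpreb1, Pou2af1, Pax5, Xk and Fahd2a had none. A match is a description of letters in these windows.

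Regions bound by Ebf1 in an Abelson-transformed progenitor B-cell line leaned towards Wt. Binding was not measured in the fetal liver cells for these tables. Of the 1192 bound regions, 416 (34.9%) were called higher in Wt and 117 (9.82%) higher in Ebf1-KO, with a median log2 ratio of 0.36 (0.21 to 0.48). Of the 2446 unbound regions, 497 (20.3%) and 445 (18.2%) were called and the median was -0.14 (-0.21 to -0.08). Bound regions were longer (median 973.5 against 635 bp) and held more tags in Wt (24.1 against 9.855). At regions open in Wt only and away from promoters, 167 of 241 bound regions were called higher in Wt, with a median of 1.69 (1.48 to 1.91), against 233 of 507 unbound ones with a median of 0.87 (0.73 to 1.03). There the median lengths were 634 and 358 bp, with 8.35 and 5.35 tags in Wt. The part of length and level in these contrasts was not tested. At promoters open in Wt only, 14 of 21 bound and 25 of 48 unbound ones were called higher in Wt, with medians of 2.16 (0.57 to 2.46) and 1.05 (0.26 to 1.52) whose intervals overlap. At promoters open in both the medians were -0.43 (-0.56 to -0.29) and -0.53 (-0.61 to -0.41). Promoters of Cd79a, Cd79b, Vpreb1, Vpreb2, Igll1 and Pou2af1 were on the bound list, while the Pax5 and Ikzf3 promoters were not. Fli1 peaks of Wt cells were found at 49.2% of regions higher in Wt, 48.1% of those within 2-fold and 42.9% of those higher in Ebf1-KO, and Ikzf1 peaks at 17.7%, 15.7% and 11.0%.

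Most other marks at the same regions differed along with H3K4me3 where it was higher in Wt, and less so where it was higher in Ebf1-KO. H3K4me2, H3K27ac, PolII, BRG1 and EP300 each rest on 1 library per genotype, and H3K27me3 on a pool of 2. H3K4me2 was at least 2-fold higher in Wt at 1099 regions (30.2%) and higher in Ebf1-KO at 276 (7.59%). At the 913 regions with more H3K4me3 in Wt, H3K4me2 had medians of 25.0 tags in Wt and 3.84 in Ebf1-KO, and 74.8% were called higher in Wt for it as well. At the 562 regions with more H3K4me3 in Ebf1-KO the medians were 14.3 and 21.7, and 17.4% were called higher in Ebf1-KO. Across the 3638 regions the log2 ratios of the 2 marks had a Pearson correlation of 0.72 and a Spearman correlation of 0.66, against 0.62 and 0.60 for PolII. At the 581 promoters alone the values were 0.65 and 0.47 for H3K4me2, and 0.65 and 0.58 for PolII. This is a description, since the regions share their libraries and are not independent replicates.

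H3K27ac, measured by CUT&RUN, and PolII were lower in Ebf1-KO at many more regions than they were higher. H3K27ac was called higher in Wt at 1361 regions (37.4%) and higher in Ebf1-KO at 42 (1.15%), and PolII at 1443 (39.7%) and 256 (7.04%). At regions with more H3K4me3 in Wt, H3K27ac had medians of 16.9 tags in Wt and 4.07 in Ebf1-KO. Where H3K4me3 was within 2-fold, the H3K27ac medians were 15.3 and 9.07, with 28.7% called higher in Wt and 0.97% higher in Ebf1-KO. At regions with more H3K4me3 in Ebf1-KO the H3K27ac medians were 14.05 and 12.6. So H3K27ac as scaled was not higher in Ebf1-KO there, but the genotypes lay closer than at regions within 2-fold. Of the regions with more H3K4me3 in Ebf1-KO, 3.56% were called higher in Ebf1-KO for H3K27ac and 12.6% higher in Wt. At regions with more H3K4me3 in Wt, PolII had medians of 16.0 tags in Wt and 3.08 in Ebf1-KO. At regions where H3K4me3 was within 2-fold, PolII was still lower in Ebf1-KO, with medians of 13.7 and 8.21, and 31.6% were called higher in Wt. At regions with more H3K4me3 in Ebf1-KO, PolII had medians of 9.36 and 12.3, with 22.8% called higher in Ebf1-KO and 10.1% higher in Wt. The chromatin remodeller subunit BRG1 and the acetyltransferase EP300 were measured at 1172 of the Ebf1-bound regions, where 376 (32.1%) and 432 (36.9%) were called higher in Wt and 115 (9.81%) and 129 (11.0%) higher in Ebf1-KO. At the 407 of them with more H3K4me3 in Wt, BRG1 had medians of 16.3 and 5.03 tags and EP300 of 16.1 and 4.39. At the 116 with more H3K4me3 in Ebf1-KO, BRG1 had medians of 14.95 and 23.3 tags and EP300 of 14.5 and 16.6. Among those, 15 were promoters, where the EP300 medians were 22.9 and 13.95.

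H3K27me3 differed the other way at a subset of these regions. H3K27me3 was called higher in Ebf1-KO at 615 regions (16.9%) and higher in Wt at 170 (4.67%). In Ebf1-KO, at least 10 tags of H3K27me3 were found at 132 of the 913 regions with more H3K4me3 in Wt (14.5%, Wilson interval 12.3–16.9%), 126 of the 2163 within 2-fold (5.83%, 4.91–6.89%) and 22 of the 562 with more H3K4me3 in Ebf1-KO (3.91%, 2.60–5.86%). In Wt these shares were 1.86%, 1.66% and 2.14%. Of the 132 regions, 115 had fewer than 10 tags in Wt, and they lay near 97 genes.

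**Figure D5:**
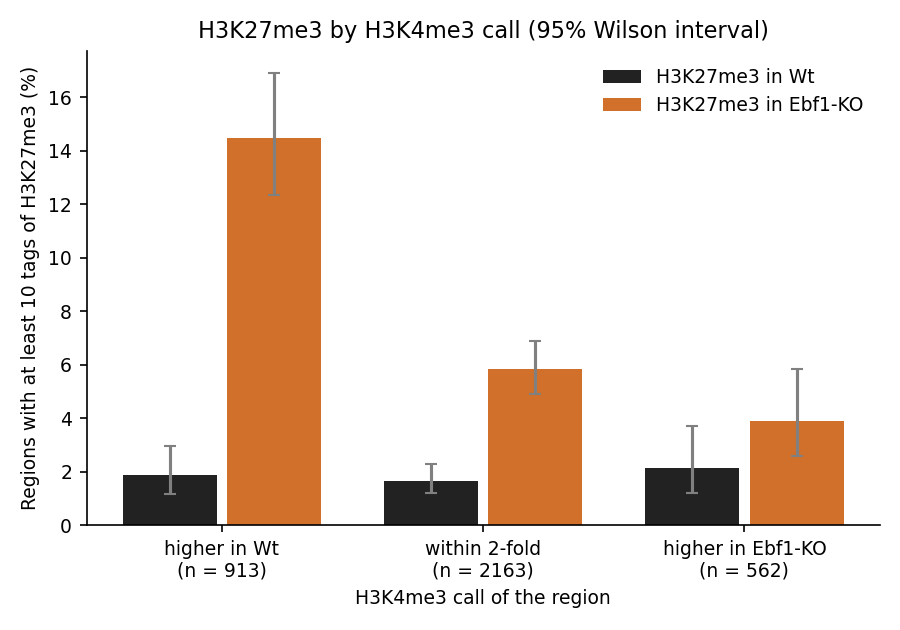
Share of regions with at least 10 tags of H3K27me3 (y axis, %) in Wt (black) and Ebf1-KO (orange), by the H3K4me3 call of the region (x axis), with 95% Wilson intervals over regions. In Ebf1-KO the share is 14.5% at regions with more H3K4me3 in Wt and under 6% in the other 2 groups, while the Wt bars stay near 2%.

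Named factors and receptors were among the regions with more H3K4me3 in Wt and H3K27me3 in Ebf1-KO. The Ikzf3 promoter held 1.22 tags of H3K27me3 in Wt and 45.2 in Ebf1-KO, and its PolII was 35.1 tags in Wt and was listed at 0 in Ebf1-KO. The Pax5 promoter held 0.50 and 22.6 tags of H3K27me3, and a region at -3411 bp from a Lef1 start (chr3:131106026-131107747) held 2.01 and 90.1 beside 154 and 27.8 of H3K4me3. The first intron of Cd55 held 1.43 and 23.2 tags of H3K27me3. By contrast, the Cd79a, Vpreb1, Igll1 and Pou2af1 promoters held at most 2.65 tags of H3K27me3 in either genotype. So promoters with at least 2-fold less H3K4me3 in Ebf1-KO were found both with and without H3K27me3 there. The CpG-rich Pax5 window belongs to the promoters with it and the 4 CpG-poor windows to those without, which describes 5 promoters and no more.

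At a few regions H3K4me3 and H3K4me2 went in opposite directions, and those with more H3K4me3 in Wt mostly lay near starts. At 12 regions H3K4me3 was at least 2-fold higher in Wt while H3K4me2 was at least 2-fold higher in Ebf1-KO. Of these, 8 lay within 1000 bp of a start. The 12 were 1.31% of the 913 regions with more H3K4me3 in Wt, while H3K4me2 was called higher in Ebf1-KO at 7.59% of all regions. At least 10 tags of H3K27me3 in Ebf1-KO were held by 6 of the 12, and by 14.5% of the 913. The Lef1 promoter (chr3:131111958-131112852) held 190.1 tags of H3K4me3 in Wt and 31.1 in Ebf1-KO, 16.0 and 53.0 of H3K4me2, and 1.29 and 31.4 of H3K27me3. The first exon of Cd24a, the heat-stable antigen of B progenitors (chr10:43578293-43580262), held 410.01 and 195 tags of H3K4me3, 74.3 and 168 of H3K4me2, and 1.36 and 31.3 of H3K27me3. The first exon of Id3, an inhibitor of E proteins, held 187 and 75.9 tags of H3K4me3 and 40.8 and 115 of H3K4me2, and 0.50 and 7.76 of H3K27me3, under the 10-tag minimum. The first exon of Foxo1, where H3K4me3 was within 2-fold, had the same order in the other marks, with 74.1 and 313 tags of H3K4me2 and 1.58 and 36.7 of H3K27me3. At the starts of Lef1, Cd24a and Foxo1 all 3 marks were therefore found in Ebf1-KO chromatin, and whether they lie in the same cells was not measured.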

How the data were processed

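ChIP-seq, CUT&RUN and ATAC-seq signal was read from region tables of the series. The deposited signal is the number of tags in a region, scaled to 10000000 tags per library per the file headers and not divided by region length. HOMER 4.10, SAMtools 1.9 and Bowtie2 2.3.5 are listed in the submitters' processing notes, as are the builds mm10 and GRCm38.p5. Value times library total over 10000000 returned whole H3K4me3 tags within 0.1 tag in 100% of regions, which gave the counting intervals. Ebf1-bound regions are those of the 2 deposited tables of that name, and Fli1 and Ikzf1 peaks those of lists that carry a deposited peak score; all were used as positions (overlap of at least 1 bp). The deposited PLAC-seq list, with its contact count, and the accessibility list of the Abelson line are not reported.

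The 4 histone tables held 3760 rows, of which 122 repeated a region, and the first was kept. Gene names were the authors' nearest start, with 103 blank names filled from RefSeq. The column headers name pools, so no test was made, as the design provided for pools. Alternatives were TMM (edgeR 4.0.16) and DESeq2 1.42.0 size factors on recovered tags, pseudocounts of 0.1 and 5, filters on level and length, 1 region per gene and, added after the data were seen, centring on promoters open in both and counting every row. The named regions are the 10 with the largest log2 ratio in each direction among promoters and among other regions whose larger value is at least 20 tags, 1 per gene, the 5 highest per genotype, and listed genes by their strongest region, with further regions of 16 genes. The members, gene lists and rules were chosen with earlier results of these data known. The calling step was tested on simulated data. Shares carry Wilson intervals. The 2 ATAC columns of Ebf1-KO and Pax5-KO have no labelled sample and were not used. Some regions that the naming rule covers are not reported here. Input libraries were not analysed here. Scripts ran in R 4.3.3 and in Python 3.11.15 with matplotlib 3.10.9, SciPy 1.17.1, pandas 2.3.3 and numpy 2.4.6.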

Additional observations from a re-analysis of the deposited data

How the results depend on the processing

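No paired analysis was possible because each genotype is 1 pooled column, and for the same reason no sample could be left out. DESeq2 size factors (a shift of 0.05 on the log2 scale) and counting every table row left all 15 results on regions within the set tolerance. TMM (a shift of 0.08) moved the median log2 ratio to 0.032 for all regions and -0.15 for other regions open in both, and the receptor genes called higher in Ebf1-KO to 0. A pseudocount of 5, which pulls low values together, gave 15.8% of all regions higher in Wt and 9.26% higher in Ebf1-KO. For the other regions open in Wt only it gave 31.8%, 1.47% and a median of 0.58, for promoters open in Wt only 34.8% and 2.90%, and for other regions open in both 11.5%, 11.7% and a median of -0.15. A pseudocount of 0.1 gave other regions open in Wt only 8.16% higher in Ebf1-KO and a median of 1.61.

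Regions of at least 20 tags had medians of -0.40 (all), 2.49 (Wt only, other), 2.02 (Wt only, promoter) and -0.41 (both, other). Regions of 500 to 1000 bp gave 1.87% higher in Ebf1-KO and a median of 1.497 for Wt only, other, 2.28 for Wt only, promoter and -0.40 for both, promoter. With 1 region per gene the medians were -0.31 (all), 1.504 (Wt only, other), 0.020 (Wt only, promoter, with 15.8% higher in Ebf1-KO) and -0.38 (both, other). With the region nearest the start, 0 cell-cycle genes were called higher in Ebf1-KO.

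Centring on promoters open in both (their median of -0.49 set to 0.00) gave all regions 6.35% higher in Ebf1-KO and a median of 0.46, Wt only, other 1.47% and 1.65, and Wt only, promoter 1.45%. It gave both, promoter 17.8% higher in Wt and 4.102% higher in Ebf1-KO. It turned both, other to 0.27, with 28.8% and 8.58%. Of 150 single regions, 147 kept their call under TMM, 145 at a pseudocount of 0.1 and 131 at 5, and none turned. Elsewhere the cause of a change was not tested. The pooled columns limit every statement here to these pools, whatever their depth.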

Other observations

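Among the 459 genes with at least 3 regions, 25 had every region called higher in Wt and 1, Ccnd1, had every region called higher in Ebf1-KO (named after its values were seen). Of all 3638 regions, 25.1% were called higher in Wt and 15.4% higher in Ebf1-KO. Ccnd1 encodes cyclin D1 and had 4 regions with log2 ratios from -1.69 to -1.28. Its promoter region at -81 bp from the start held 13.7 tags of H3K4me3 in Wt and 45.1 in Ebf1-KO, while H3K4me2 there was 35.2 and 12.5 and H3K27me3 13.5 and 28.7.

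At 27 regions H3K4me3 was at least 2-fold higher in Ebf1-KO while H3K4me2 was at least 2-fold higher in Wt. Of the 27, 7 lay within 1000 bp of a start. Most of the 27 were weak, with a median of 3.13 tags of H3K4me3 in Wt and 8.82 in Ebf1-KO. Among them 4 were promoters, namely Ccnd1, Prxl2a, D130017N08Rik and Fggy (Fggy named after its values were seen). At the Fggy promoter H3K4me3 was 2.35 and 8.82 tags and H3K4me2 20.9 and 3.84.

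Of the other starts with more H3K4me3 in Wt and more H3K4me2 in Ebf1-KO, Hes5 and Prkcb were chosen after their values were seen. Hes5, an effector of Notch signalling, held 311 and 153 tags of H3K4me3, 121 and 265 of H3K4me2, and 1.58 and 32.1 of H3K27me3. Prkcb, the kinase that signals below the B-cell receptor, held 233 and 80.8 tags of H3K4me3, 69.5 and 151 of H3K4me2, and 1.22 and 14.7 of H3K27me3.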
